A study of Mus musculus with 12 samples.

Results

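The genes described here handle iron, heme and folate in the mouse rectum: Slc46a1, Slc46a3, Slc40a1, Slc11a2, Tfrc, Hmox1, Fth1, Cybrd1, Heph and Trf. They were picked by symbol, and all 10 were found among the 17734 genes of the expression table. The table comes from bulk RNA-seq of rectal samples of male C57BL/6 mice aged 8 to 10 weeks, and each of the 4 groups held 3 mice. Normal mice drank water. Colitis mice drank 2.5% dextran sulfate sodium (DSS), a polymer that injures the bowel lining, for 7 days. In the other groups, normal mice and DSS mice were also given berberine (BBR), a plant alkaloid, by gavage at 100 mg/kg each day, and are called BBR-treated normal and BBR-treated colitis mice. The methods give 7 days of BBR and the labels 6, and the labels name the tissue colorectum. No source used here says that mice were pooled, so each value stands for 1 mouse.

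Iron from the diet enters the enterocyte as ferrous iron or inside heme. A ferric reductase and a proton-coupled transporter act at the lumenal membrane, ferritin stores what is not needed, and ferroportin with a copper ferroxidase passes iron on to the blood, where transferrin carries it to cells with transferrin receptor. Heme is opened by heme oxygenase, which frees its iron. Most iron is absorbed in the duodenum, while the rectum meets iron left in the lumen and heme from bleeding mucosa. Slc46a1, first described as a heme carrier, is the proton-coupled folate transporter.

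Several of these genes share an RNA element, the iron-responsive element (IRE), a hairpin with the loop CAGTGN that iron regulatory proteins bind when iron is scarce. Bound in a 5′ UTR it blocks translation, and in the 3′ UTR of Tfrc it protects the mRNA. The motif, a C followed by any 5 bases and the loop CAGTGN with any base but G at its end, with the 5 bases before and the 5 after the loop able to pair (G-U pairs allowed), was searched on the sense strand of the annotated UTRs of GENCODE M21 (GRCm38). It was found in 123 of 21718 genes with a UTR, or 0.566%, and in 3 of the 10 genes described here: Fth1, Slc40a1 and Tfrc. With 1 unpaired base allowed, 804 genes, or 3.7%, held it, and Slc11a2 joined the other 3. The sites are printed because they mark the genes whose mRNA or translation is known to follow cell iron. The capitals mark the 6 bases of the loop, and each run is 29 bases of the sense strand:
Fth1, 5′ UTR, chr19:9982732-9982760, plus strand: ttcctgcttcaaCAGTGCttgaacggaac
Slc40a1, 5′ UTR, chr1:45925465-45925493, minus strand: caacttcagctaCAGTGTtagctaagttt
Tfrc, 3′ UTR, chr16:32631219-32631247, plus strand: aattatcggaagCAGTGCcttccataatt
Tfrc, 3′ UTR, chr16:32631598-32631626, plus strand: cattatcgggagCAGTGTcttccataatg
Tfrc, 3′ UTR, chr16:32631663-32631691, plus strand: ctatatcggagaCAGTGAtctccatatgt
Tfrc, 3′ UTR, chr16:32631710-32631738, plus strand: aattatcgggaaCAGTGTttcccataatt
Slc11a2, 3′ UTR, chr15:100395153-100395181, minus strand: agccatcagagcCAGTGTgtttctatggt
The Slc11a2 site lies in 1 of its 6 annotated coding transcripts, the Slc40a1 site in 1 of 4 and the Fth1 site in 4 of 5. The Tfrc sites are in 1 of 3 coding transcripts. A match is a match of letters, and the expression table does not separate transcripts or measure protein.

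Values are given as FPKM, a level per transcript length and sequencing depth, and the unit was inferred from the values. Fold changes and their tests are on log2(FPKM + 0.1), fitted with limma over all 12 mice and 15315 genes that averaged 0.1 FPKM or more. The unadjusted P of at most 0.05 is used below only to count genes, and adjusted p is Benjamini-Hochberg adjusted over those genes, with a limit of 0.05. With 3 mice a group, the smallest exact two-sided permutation p is 0.1. The mice numbered 4 stood apart in every group, with column totals of 482194 to 504337 FPKM against 696286 to 765876 in the other 8, and 872 to 1086 genes at 0 against 1332 to 1926. In steps of low values, 1 read was worth less in them, 50.5 to 58.0 FPKM times bases against 72.5 to 79.0, which corresponds to more reads. The median gene was 0.32 log2 units lower in colitis than in normal mice and 0.40 lower in BBR-treated colitis mice than in BBR-treated normal mice. After quantile normalization these shifts were 0.05 and 0.03. The 10 colonocyte markers summed to 10228 to 19764 FPKM. In bulk tissue, fewer cells of a type and less RNA per cell cannot be told apart.

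Slc46a1, the folate transporter of the enterocyte, was higher with BBR in normal and in colitis mice and lower in colitis. It was 29.5, 37.6 and 31.0 FPKM in normal mice 1, 3 and 4, with a mean of 32.7 ± 4.27 (SD, n = 3). In BBR-treated normal mice it was 56.7, 53.9 and 51.7 FPKM, with a mean of 54.1 ± 2.47. In colitis mice 1, 2 and 4 it was 17.6, 23.1 and 20.8 FPKM, with a mean of 20.5 ± 2.74. Every colitis mouse lay under every normal mouse, and every BBR-treated normal mouse lay above every normal mouse. Mice 2, 3 and 4 of the BBR-treated colitis mice had 52.9, 23.0 and 29.3 FPKM, with a mean of 35.1 ± 15.8. Mouse 2 reached the level of BBR-treated normal mice, while mouse 3 was level with colitis mouse 2, so these groups overlapped.

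The log2 fold change of Slc46a1 was −0.67 in colitis against normal mice (SE 0.27, limma adjusted p = 0.182), which is 0.627-fold. Since the median gene was lower as well, the difference was −0.51 after quantile normalization and −0.34 with each mouse centred on its median. In BBR-treated colitis mice against BBR-treated normal mice it was −0.71 (limma adjusted p = 0.221), and −0.54 and −0.26 under the same scalings. Without BBR-treated colitis mouse 2 it was −1.06 and without mouse 3 −0.46. With BBR, the log2 fold change was 0.73 in normal mice (SE 0.27, limma adjusted p = 1) and 0.69 in colitis mice (limma adjusted p = 0.651), or 1.66-fold and 1.61-fold. Neither scaling turned the BBR differences, which were 0.77 and 0.75 after quantile normalization. The BBR difference in colitis mice was 0.35 without mouse 2 of the treated group. The interaction, the BBR effect in colitis minus that in normal mice, was −0.04 with a 95% confidence interval of −0.86 to 0.78. The data are compatible with a difference of either sign within that interval. Within the mice numbered 4 the 4 differences were −0.58, −0.82, 0.74 and 0.49 in the order given, and within the mice numbered 1 to 3 they were −0.72, −0.66, 0.73 and 0.79.

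Slc46a3, a lysosomal relative of the folate carrier, had its 3 highest values in mice with colitis. It was 4.17, 5.17 and 3.24 FPKM in normal mice, and 7.48, 8.45 and 4.88 in BBR-treated normal mice. In colitis mice 1, 2 and 4 it was 11.3, 13.2 and 4.28 FPKM, and in BBR-treated colitis mice 20.9, 9.79 and 5.16. In each of the 4 groups the mouse numbered 4 was the lowest, and all groups overlapped. The log2 fold change was 1.05 in colitis against normal mice (SE 0.51, limma adjusted p = 0.252), 1.37 within the mice numbered 1 to 3 and 0.39 between the mice numbered 4. With BBR it was 0.70 in normal mice and 0.24 in colitis mice, and the latter was −0.27 without BBR-treated colitis mouse 2 and 0.73 without mouse 4.

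**Figure D1:**
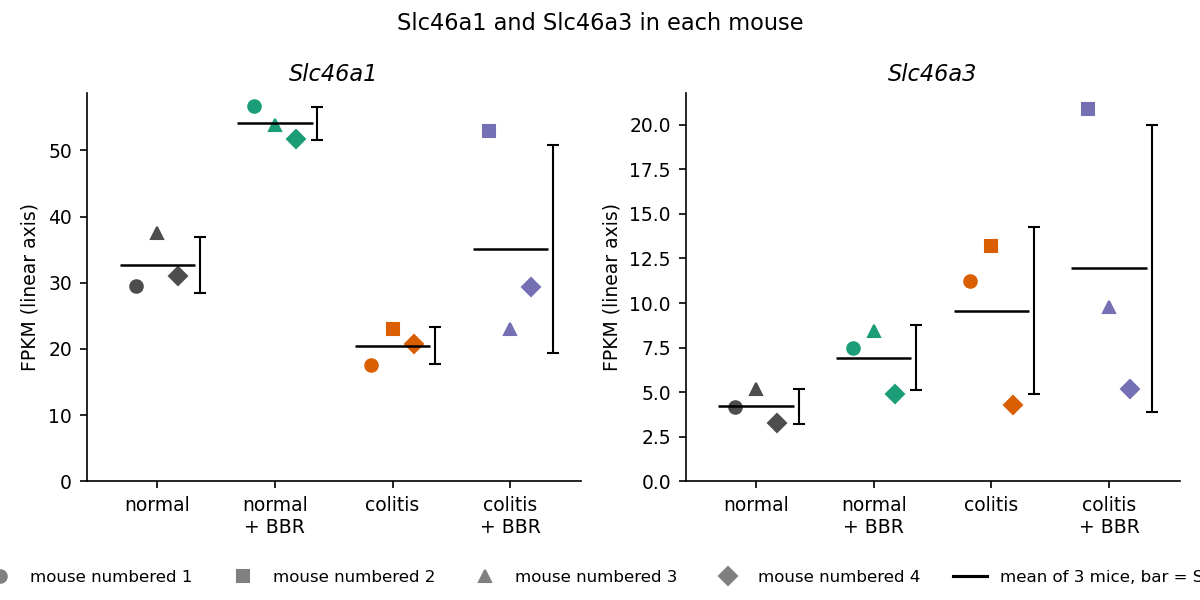
Level of Slc46a1 (left) and Slc46a3 (right) in each mouse, in FPKM on a linear axis that starts at 0. Each point is 1 mouse with its number as the marker shape, the line is the group mean and the bar beside it the SD. All 3 colitis mice lie under the lowest normal mouse in Slc46a1, and all 3 BBR-treated normal mice lie at 51.7 FPKM or higher.

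At the lumenal membrane, Slc11a2, the proton-coupled transporter of ferrous iron (DMT1), differed between groups by less than its spread. It was 15.5, 13.5 and 16.97 FPKM in normal mice, 12.4, 16.0 and 18.7 in BBR-treated normal mice, 15.3, 8.88 and 13.5 in colitis mice and 21.7, 12.1 and 15.1 in BBR-treated colitis mice. The lowest value was colitis mouse 2 and the highest was mouse 2 of the BBR-treated colitis mice, 2.45 times as high, and all groups overlapped. The log2 fold change was −0.32 in colitis against normal mice (95% confidence interval −0.91 to 0.27) and 0.37 with BBR in colitis mice (−0.22 to 0.96). Without colitis mouse 2 they were −0.088 and 0.14. Its IRE printed above lies in a 3′ UTR that only part of its transcripts carry.

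Cybrd1, the duodenal ferric reductase, was at under 1 FPKM in all 12 mice. It was 0.58, 0.33 and 0.81 FPKM in normal mice and 0.45, 0.70 and 0.64 in BBR-treated normal mice. In colitis mice it was 0.18, 0.26 and 0.46 FPKM, and in BBR-treated colitis mice 0.05, 0.15 and 0.52. Mouse 2 of the last group was the lowest, near the 0.0286 to 0.0448 FPKM that 3 reads would give on its transcript of 5339 bases, a limit that covers counting error only. The log2 fold change was −0.75 in colitis against normal mice (limma adjusted p = 0.395) and −1.27 in BBR-treated colitis mice against BBR-treated normal mice (SE 0.52, limma adjusted p = 0.235). The latter was −0.38 with a pseudocount of 1 and −1.79 with 0.01, and −0.81 without that mouse. It was −1.83, past the adjusted limit (limma adjusted p = 0.0336), without mouse 4 of the treated group. It was −1.78 within the mice numbered 1 to 3 and −0.26 between the mice numbered 4.

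Tfrc, the receptor that takes up transferrin-bound iron and is most used by dividing cells, spread widely within groups, and all groups overlapped. It was 22.9, 9.48 and 28.0 FPKM in normal mice and 13.1, 19.0 and 23.5 in BBR-treated normal mice. In colitis mice 1, 2 and 4 it was 50.2, 16.4 and 106 FPKM. Colitis mice 1 and 4 had the highest values of all 12 mice, and colitis mouse 2 lay within the normal range. With DSS and BBR together it was 5.39, 25.4 and 29.5 FPKM, with the lowest value of the study in mouse 2. Its log2 fold change was 1.28 in colitis against normal mice (SE 0.73, limma adjusted p = 0.310) and −1.47 with BBR in colitis mice (SE 0.73, limma adjusted p = 0.826). The first was 0.65 without colitis mouse 4, 1.995 without colitis mouse 2 and 0.81 without normal mouse 3. The BBR difference in colitis mice was −0.70 without mouse 2 of the treated group, −0.84 without colitis mouse 4 and −2.19 without colitis mouse 2. The interaction of BBR and colitis was −1.45 (95% confidence interval −3.71 to 0.80).

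Trf, transferrin itself, was lower with BBR in normal mice, although 1 normal mouse carried most of the difference. It was 12.8, 14.4 and 37.5 FPKM in normal mice and 12.1, 11.2 and 7.92 in BBR-treated normal mice, and the groups did not overlap. The difference in log2 units was −0.89 (SE 0.50, limma adjusted p = 1). It was −0.22 within the mice numbered 1 and 3 and −2.23 between the mice numbered 4, where the normal mouse had 37.5 FPKM. In colitis mice Trf was 5.16, 18.9 and 18.6 FPKM, and in BBR-treated colitis mice 9.15, 7.41 and 8.01. The latter had the narrowest spread of the 4 groups, 8.19 ± 0.884 FPKM (SD, n = 3), and lay within the range of colitis mice. Here the log2 fold change was −0.58, −1.19 without colitis mouse 1 and −0.26 without colitis mouse 2.

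Fth1, the heavy chain of the iron store ferritin, had the highest level of the 10 genes, at the median percentile of 99.9 among the genes of a mouse. It was 2092.5, 2192 and 1586 FPKM in normal mice and 2286, 2087 and 2108 in BBR-treated normal mice. In colitis mice 1, 2 and 4 it was 2378, 4738 and 1888 FPKM. With DSS and BBR it was 6392, 2829.5 and 2100.1 FPKM. In each colitis group 1 mouse, the one numbered 2, stood far above the rest, and the mouse numbered 4 was within the range of mice without colitis. The fitted log2 difference was 0.52 in colitis against normal mice and 0.28 with BBR in colitis mice, and the latter was −0.19 without mouse 2 of the treated group. The first was 0.13 without colitis mouse 2 and 0.79 without colitis mouse 4. Fth1 has near-identical processed copies in the mouse genome, so its level may hold reads that cannot be placed with certainty. Ftl1, the ferritin light chain, had its highest value in the same mouse, 7367 FPKM against 957 to 2987 in the other 11.

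Hmox1, the inducible heme oxygenase, was higher in every colitis mouse than in any normal mouse. It was 7.71, 4.72 and 4.07 FPKM in normal mice and 7.35, 4.99 and 4.75 in BBR-treated normal mice. In colitis mice 1, 2 and 4 it was 11.1, 26.1 and 9.16 FPKM, above all 6 mice without colitis. In DSS mice given BBR it was 141, 15.1 and 6.91 FPKM, where mouse 2 had the highest value of the study and mouse 4 lay within the range of mice without colitis. On the log2 scale the difference was 1.37 in colitis against normal mice (SE 0.84, limma adjusted p = 0.340; exact two-sided permutation p = 0.1, the smallest possible). It was 2.12 in BBR-treated colitis mice against BBR-treated normal mice (SE 0.84, limma adjusted p = 0.230), and 0.86 without that mouse. It was 3.03, past the adjusted limit (limma adjusted p = 0.0320), without mouse 4 of the treated group, 2.91 within the mice numbered 1 to 3 and 0.53 between the mice numbered 4. With BBR in colitis mice it was 0.82, and −0.44 without that mouse. The spread of Hmox1 in BBR-treated colitis mice was 75.2 FPKM around a mean of 54.4, which is larger than the mean.

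On the side of the blood, Slc40a1 encodes ferroportin, the iron exporter, and was higher in every BBR-treated normal mouse than in any untreated one. It was 139, 140.1 and 108 FPKM in normal mice and 177, 205 and 208 in BBR-treated normal mice. Its log2 fold change was 0.61 (95% confidence interval −0.80 to 2.02, limma adjusted p = 1; exact two-sided permutation p = 0.1, the smallest possible). Both groups were tight, with an SD of 18.4 and 16.8 FPKM, but the fit uses 1 spread per gene for all 4 groups. In colitis mice 1, 2 and 4 Slc40a1 was 284, 49.4 and 146 FPKM, and in BBR-treated colitis mice 454, 99.3 and 87.0. These 2 groups held both the highest and the lowest value of the study, and their SD was 118 and 209 FPKM. The difference in log2 units was −0.01 in colitis against normal mice (95% confidence interval −1.42 to 1.40), and it lay between −0.59 and 0.67 when 1 mouse was left out.

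Heph, the copper ferroxidase hephaestin that works with ferroportin, was 48.6, 61.0 and 39.8 FPKM in normal mice and 59.2, 45.6 and 45.3 in BBR-treated normal mice. In colitis mice it was 90.3, 74.6 and 49.6 FPKM, and in BBR-treated colitis mice 85.3, 77.1 and 40.0. The colitis mice numbered 1 to 3 in both groups lay above all 6 mice without colitis, and the 2 colitis mice numbered 4 lay among them. The fitted log2 difference was 0.50 in colitis against normal mice (SE 0.31, limma adjusted p = 0.345) and −0.12 with BBR in colitis mice. The latter was 0.22 without mouse 4 of the treated group, and the first 0.31 without colitis mouse 1. The first was 0.59 within the mice numbered 1 to 3 and 0.32 between the mice numbered 4.

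**Figure D2:**
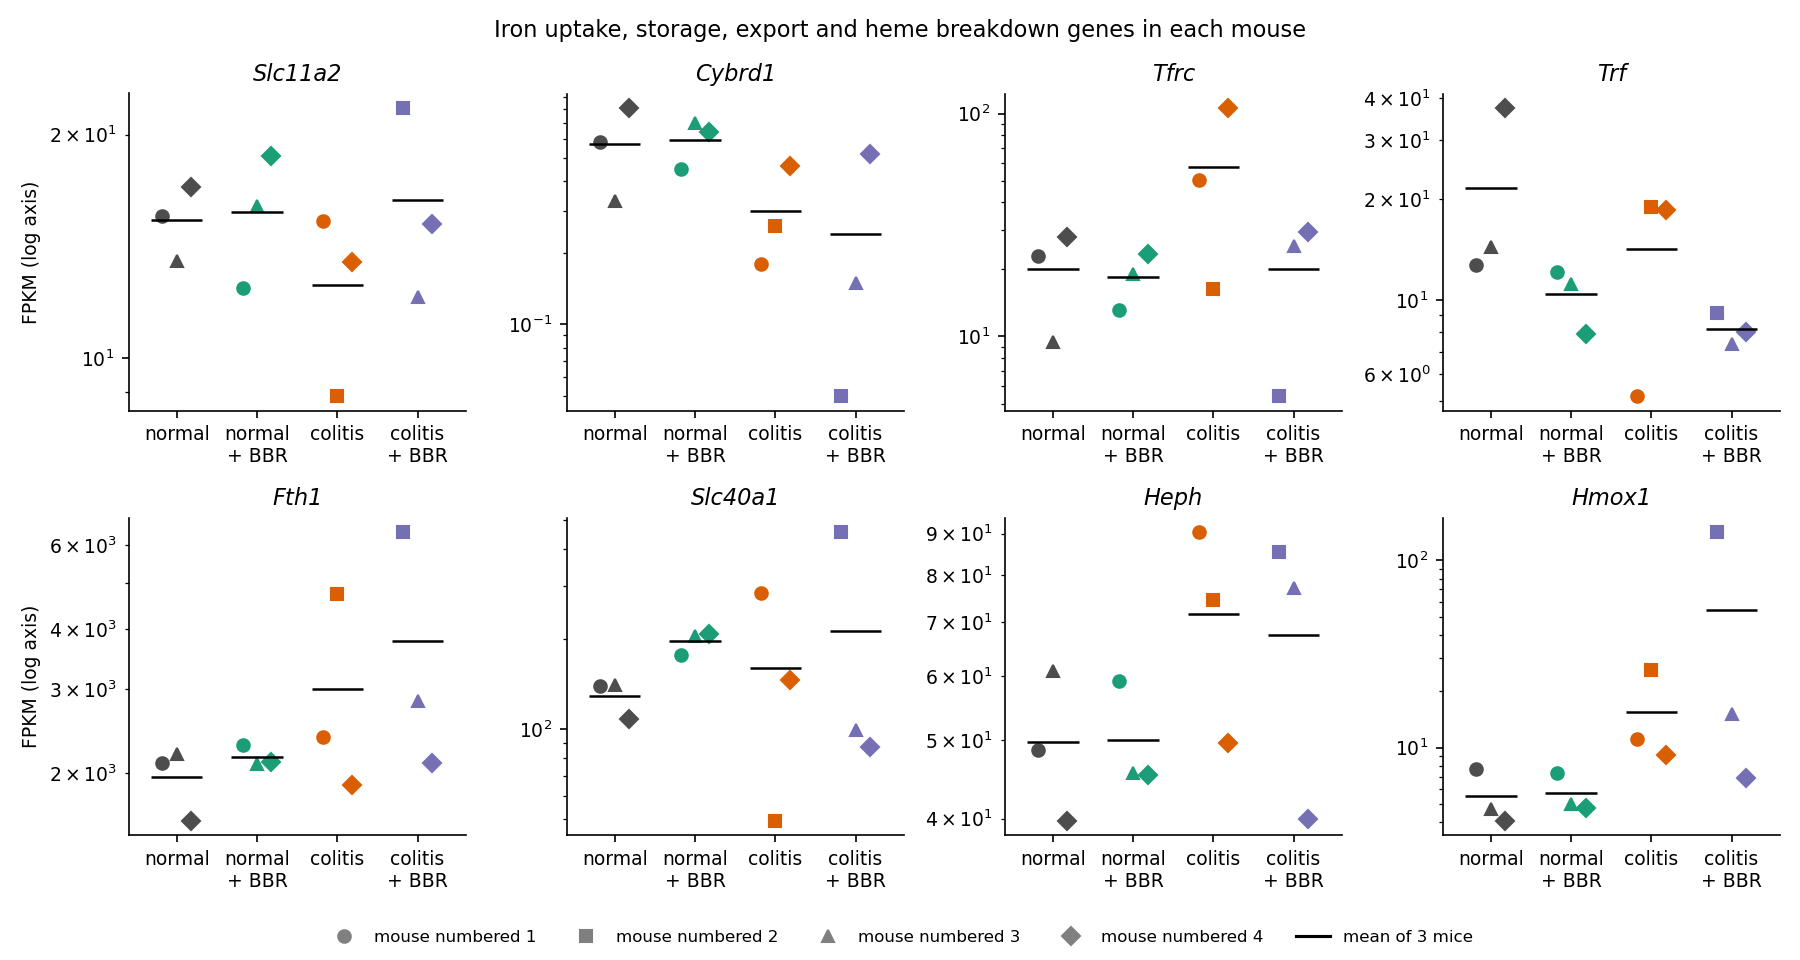
Levels of the genes of iron uptake (Slc11a2, Cybrd1, Tfrc, Trf), storage (Fth1), export (Slc40a1, Heph) and heme breakdown (Hmox1) in each mouse, in FPKM on log axes that differ between panels. Points are mice with their number as the marker shape, and lines are means of 3 mice. Mouse 2 of the BBR-treated colitis mice is the highest of all 12 in Slc11a2, Fth1, Slc40a1 and Hmox1 and the lowest in Tfrc and Cybrd1.

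Counted over the 10 genes, none passed the adjusted limit in limma in any of these pairwise comparisons, and the share of all genes that did was small in most. In colitis against normal mice, 0 of 10 were called, against 1.08% of all tested genes, and 1 of 10, Slc46a1, had P of at most 0.05, against 21.4%. Of the 10, 2 did not overlap between the groups, Slc46a1 lower and Hmox1 higher, against 29.3% of all genes. In BBR-treated normal mice against normal mice, 0 of 10 were called (0% of all genes) and Slc46a1 alone had P of at most 0.05 (1.36%). Here 3 of 10 did not overlap, Slc46a1 and Slc40a1 higher and Trf lower, against 9.62%. In BBR-treated colitis mice against colitis mice, 0 of 10 were called (0%), Slc46a1 alone had P of at most 0.05 (6.39%), and 0 of 10 failed to overlap (7.08%). In BBR-treated colitis mice against BBR-treated normal mice, 0 of 10 were called (0.0392%), and Slc46a1, Hmox1 and Cybrd1 had P of at most 0.05 (19.7%), while 0 of 10 failed to overlap (20.2%). For the interaction, 0 of 10 were called (0%) and 0 of 10 had P of at most 0.05 (2.42%). A block for the mice numbered 4 gave 0 calls among the 10 in each of these, while the share of all genes called was 9.22%, 0%, 0.0131%, 1.75% and 0% in the order given.

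**Figure D3:**
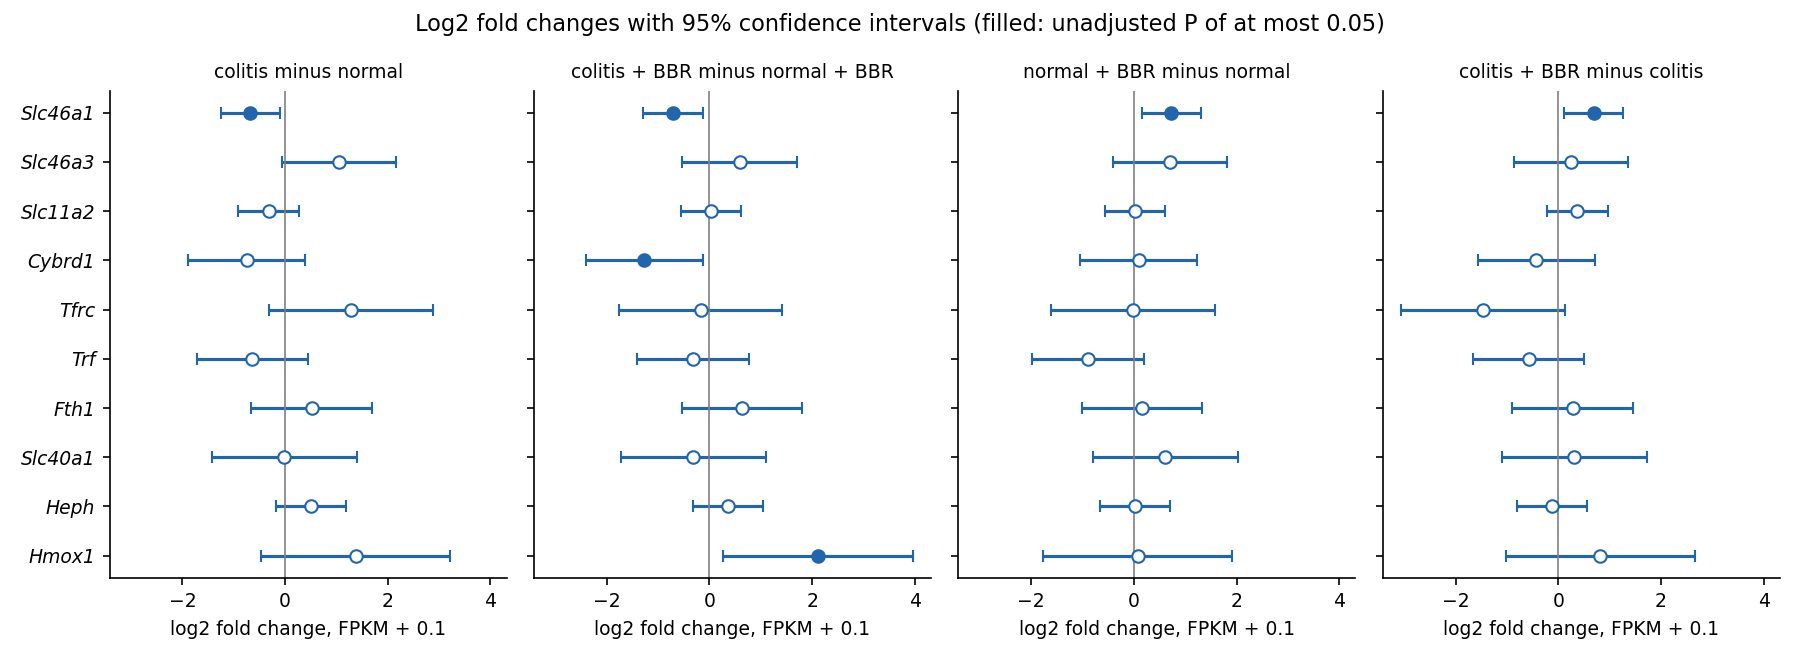
Log2 fold changes of the 10 genes on the FPKM + 0.1 scale in 4 comparisons, with 95% confidence intervals from limma. Filled points have an unadjusted P of at most 0.05, and none passes the adjusted limit. Slc46a1 has the same sign in both colitis comparisons, −0.67 and −0.71, and in both BBR comparisons, 0.73 and 0.69.

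Because each of the pairwise comparisons holds 6 mice, the mean of the 2 BBR comparisons and the mean of the 2 colitis comparisons were taken from the same fit, a choice made after the values were seen. The average BBR effect on Slc46a1 was 0.71 (SE 0.19, 95% confidence interval 0.30 to 1.12, limma adjusted p = 0.885). It stayed between 0.54 and 0.84 when 1 mouse was left out, with 0 of 10 genes called (0% of all genes). Slc46a1 alone had P of at most 0.05 there, against 4.94% of all genes. The average colitis effect on Slc46a1 was −0.69 (SE 0.19, limma adjusted p = 0.0381), a fall past the adjusted limit and the 1 call among the 10, against 14.3% of all genes. The call was lost when any of 9 of the 12 mice was left out, over the mice numbered 1 to 3 alone (−0.69, limma adjusted p = 0.0725), without the trend on mean expression (limma adjusted p = 0.0501), after quantile normalization (−0.53, limma adjusted p = 0.103) and after centring on the median (−0.30, limma adjusted p = 0.464). The average colitis effect was 1.75 for Hmox1 (limma adjusted p = 0.0636), −1.01 for Cybrd1 (0.0764), 0.82 for Slc46a3 (0.119) and 0.43 for Heph (0.160), the bracketed values being limma adjusted p. Without BBR-treated colitis mouse 2 the value for Hmox1 was 1.12, and without mouse 4 of that group it was 2.199 (limma adjusted p = 0.01003). In the refit without that mouse 4 all 5 genes passed the adjusted limit, but the share of all genes that did was not counted. With a block for the mice numbered 4, all 5 of these genes passed the adjusted limit, at 0.0198 to 0.0368, but so did 34.9% of all genes.

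In the wider lists of iron, heme and folate genes, which held 2 to 22 tested genes each, 1 gene passed the adjusted limit in colitis. Of all tested genes, 1.08% did so in this comparison with normal mice. The gene was 1 of the 2 listed for iron-withholding proteins. Ltf, which encodes the iron-binding lactoferrin of neutrophils and epithelium, was 0.03, 0.05 and 0.12 FPKM in normal mice and 24.4, 32.7 and 26.8 in colitis mice. It rose by 7.42 log2 units (SE 1.10, limma adjusted p = 0.0151), while normal mice were close to 0 and the value was 4.75 with a pseudocount of 1 and 8.68 with 0.01. The call was lost when colitis mouse 1 or any 1 of the normal mice was left out (limma adjusted p 0.0537 to 0.0802). Lcn2, the siderophore-binding lipocalin, was 2.58, 6.49 and 2.57 FPKM in normal and 49.3, 264 and 13.7 in colitis mice, differing by 3.97 log2 units (limma adjusted p = 0.0647, and 0.0146 with a block for the mice numbered 4). The Lcn2 difference was 2.86 without colitis mouse 2 and 4.98, past the adjusted limit (limma adjusted p = 0.0318), without colitis mouse 4. With DSS and BBR, Ltf was 12.9, 38.0 and 0.47 FPKM and Lcn2 26.0, 23.5 and 3.82. In mouse 4 of this group Lcn2 was within the normal range, while Ltf, at 0.47 FPKM, was above all normal mice. On the log2 scale the difference with BBR was −2.08 for Lcn2 (limma adjusted p = 0.771) and −2.09 for Ltf (limma adjusted p = 0.871). It was −0.96 for Lcn2 without colitis mouse 2 and −0.33 for Ltf without mouse 4 of the treated group.

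Of 9 tested genes of iron sensing and the hepcidin axis, 0 passed the adjusted limit in colitis against normal mice and 3 fell with a block for the mice numbered 4, where 6.42% of all genes did: Hamp2, a hepcidin paralog, Bmp6, the ligand that drives hepcidin, and Epas1, the oxygen-sensitive factor HIF-2α. Their log2 fold changes were −2.59, −1.61 and −0.58, with limma adjusted p of 0.0174, 0.0235 and 0.0496 in that fit and 0.148, 0.0713 and 0.189 without the block. Without the block, the Hamp2 difference was −1.79 when colitis mouse 4 was left out and −3.44 when normal mouse 4 was. Bmp6 was 2.66, 2.04 and 3.6 FPKM in normal and 0.45, 1.23 and 0.95 in colitis mice, with no overlap. Hamp2 was 5.59, 14.9 and 1.47 FPKM in normal, 1.13, 1.68 and 0.18 in colitis and 5.49, 2.81 and 2.54 in BBR-treated colitis mice, and these last lay above all colitis mice (log2 fold change 2.04, limma adjusted p = 0.764, and 1.24 without colitis mouse 4). The median log2 fold change of the 9 genes in colitis was −0.33, against −0.32 over all genes.

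In the other lists no gene passed the adjusted limit in colitis without a block. Of all genes, 5.56% were higher and 15.9% lower at P of at most 0.05 in this comparison, with a median of −0.32. Of 16 tested genes of iron uptake, storage and efflux, 0 were called and 2 higher and 3 lower had P of at most 0.05 in colitis, with a median of −0.05. Among them Steap4, a metalloreductase, was 1.94, 1.14 and 3.62 FPKM in normal and 40.2, 25.2 and 12.1 in colitis mice (3.45, limma adjusted p = 0.108). Mcoln1, of the same list, was lower in colitis, at −1.35 to −0.77 over all settings tried. In heme synthesis 0 of 12 were called, with 2 higher and 4 lower at P of at most 0.05 and a median of −0.39. Alas1, which makes the first and limiting step of heme synthesis outside the red cell, was 39.5, 28.1 and 43.6 FPKM in normal, 123, 64.6 and 78.6 in colitis and 20.4, 63.1 and 41.9 in BBR-treated colitis mice. Its log2 fold change was 1.23 in colitis (limma adjusted p = 0.114) and −1.18 with BBR in colitis mice (limma adjusted p = 0.556), with no overlap in either. The latter was −0.73 without mouse 2 of the treated group. Abcb6, also listed for heme synthesis, was lower in colitis (−1.28, and −0.77 without colitis mouse 2). In heme transport, breakdown and scavenging 0 of 13 were called, with 1 higher and 2 lower at P of at most 0.05 and a median of −0.17, and 1, the heme-binding Pgrmc1, fell with the block (−0.57, limma adjusted p = 0.0357), where 6.42% of all genes did. In iron-sulfur cluster assembly 0 of 12 were called, with 1 lower at P of at most 0.05 and a median of −0.37.

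Folate genes other than Slc46a1 gave no call and no P of at most 0.05 in limma in any of the 4 pairwise comparisons. The list held 22 tested genes of folate transport and the folate cycle. Of all genes, 21.4% had P of at most 0.05 in colitis against normal mice. The share was 19.7% in BBR-treated colitis against BBR-treated normal mice, and 1.36% and 6.39% with BBR in normal and colitis mice. At most 1.08% of all genes were called in any of these. In colitis 20 of the 22 were lower, with a median of −0.31, beside −0.32 over all genes, and quantile normalization made it 0.07. With BBR 17 of 22 were lower in normal mice, with a median of −0.31 against −0.02 over all genes, and 18 of 22 in colitis mice, with a median of −0.27 against −0.09. After quantile normalization these medians were −0.28 in normal and −0.083 in colitis mice. Slc19a1, the reduced folate carrier, was 3.34, 3.97 and 3.35 FPKM in normal and 2.65, 2.71 and 2.02 in BBR-treated normal mice (−0.52), opposite in sign to Slc46a1.

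With BBR in colitis mice, the list genes with the smallest P in iron uptake, storage and efflux were Cp, the plasma ferroxidase ceruloplasmin, and Slc11a1, the metal transporter of the phagosome. Cp was 4.58, 19.4 and 3.27 FPKM in colitis mice and 1.17, 2.38 and 1.61 with BBR (−1.95, limma adjusted p = 0.512). Slc11a1 was 1.72, 3.71 and 1.88 FPKM in colitis mice and 0.67, 0.77 and 0.91 with BBR (−1.45, limma adjusted p = 0.554). Neither group pair overlapped. Without colitis mouse 2 the difference in Cp was −1.18. In normal mice, Bach1, the heme-sensing repressor of Hmox1, was 10.7, 9.44 and 12.4 FPKM without and 29.4, 14.7 and 15.8 with BBR (0.81, limma adjusted p = 1, and 0.50 without BBR-treated mouse 1), while Hmox1 differed by 0.08. Ncoa4, the cargo receptor for the breakdown of ferritin, was 70.1, 73.2 and 58.2 FPKM without and 110.3, 89.0 and 91.7 with BBR (0.53, limma adjusted p = 1).

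Markers of other cells differed between the groups. The 10 smooth muscle markers summed to 2015 to 3621 FPKM in normal mice, 2795 to 5827 in BBR-treated normal mice, 92.8 to 812 in colitis mice and 570 to 3926 in BBR-treated colitis mice. All 10 were lower in colitis at P of at most 0.05, against 15.9% of all genes, with 0 past the adjusted limit in limma and 10 with the block for the mice numbered 4, against 6.42% of all genes. Of the 10 neutrophil markers, 9 were tested and all 9 were higher in colitis at P of at most 0.05, against 5.56% of all genes, and 3 of them rose past the adjusted limit, against 0.653%. Their sum was 262 to 708 FPKM in normal, 420 to 793 in BBR-treated normal mice, 603 to 4191 in colitis and 491 to 2947 in BBR-treated colitis mice, and mouse 4 of the last group was within the normal range. S100a8, Mpo and Fpr1 were at 0 in 6 mice each. Macrophage markers, from cells that recycle iron from heme through Hmox1 and Slc40a1, summed to 159 to 219 FPKM in normal, 141 to 189 in BBR-treated normal mice, 216 to 500.4 in colitis and 120.7 to 214 in BBR-treated colitis mice. Mouse 2 of the last group, with the highest Hmox1, Fth1 and Slc40a1, had a sum of 184 FPKM, within the range of normal mice, but its single markers went both ways. Cd68 was 22.9 FPKM in that mouse against 5.66 to 8.9 in normal mice, and Cd14 was also above the normal range, while Adgre1, Csf1r, C1qa, C1qc, Mrc1 and Cx3cr1 were below it. With BBR in colitis mice 9 of the 10 were lower, 6 at P of at most 0.05 (5.2% of all genes) and 0 past the adjusted limit. Its neutrophil markers summed to 2091 FPKM and its erythroid markers to 124 FPKM. Erythroid markers, of which 8 of 10 are in the table, summed to 8.44 to 62.5 FPKM in normal mice, 16.6 to 47.9 in BBR-treated normal mice, 20.8 to 336 in colitis and 12.9 to 148 in BBR-treated colitis mice. Slc4a1, a defining marker of red cells, was at 0 in 6 mice and Alas2 in 2. All 10 fibroblast markers were lower in BBR-treated colitis than in BBR-treated normal mice, with a median of −1.22 against −0.40 over all genes. Of these, 6 had P of at most 0.05, against 17.3% of all genes, and 0 passed the adjusted limit. In colitis against normal mice 9 of the 10 were lower, 1 at P of at most 0.05.

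Markers of cycling cells summed to 64.5 to 144 FPKM in normal mice, 35.8 to 64.2 in BBR-treated normal mice, 61.2 to 173 in colitis and 4.47 to 64.8 in BBR-treated colitis mice. With BBR in colitis mice all 10 were lower, 7 at P of at most 0.05 (5.2% of all genes) and 0 past the adjusted limit in limma, with a median of −2.11. The mouse with the lowest sum, mouse 2 of the last group at 4.47 FPKM, also had the lowest Tfrc, 5.39 FPKM. The mouse with the highest sum, colitis mouse 4 at 173 FPKM, had the highest Tfrc, 106 FPKM. Between these 2 mice the order was not kept: colitis mouse 1 had the second highest Tfrc with a sum of 61.2 FPKM. The summed colonocyte markers overlapped between all groups, and 0 of 10 had P of at most 0.05 in colitis. The sum was 13886 to 19764 FPKM in BBR-treated normal mice and 12538 to 19359 in normal mice. In colitis and in BBR-treated colitis mice it was 10228 to 16048 and 12556 to 18204 FPKM. Keratins and Car1 make up most of this sum, and single markers differed from it. Slc26a3, the chloride exchanger of absorptive colonocytes, was 803, 1306 and 890 FPKM in normal and 547, 370 and 361 in colitis mice, with no overlap (−1.23, limma adjusted p = 0.260). It was 1324, 956 and 1481 FPKM in BBR-treated normal and 1803, 225 and 1009 in BBR-treated colitis mice. The keratins were in another order in mice 2, 3 and 4 of that group, with Krt8 at 2012, 3161 and 3492 FPKM and Krt20 at 625, 1363 and 648 FPKM. The part of these cells in the differences given above was not tested.

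**Figure D4:**
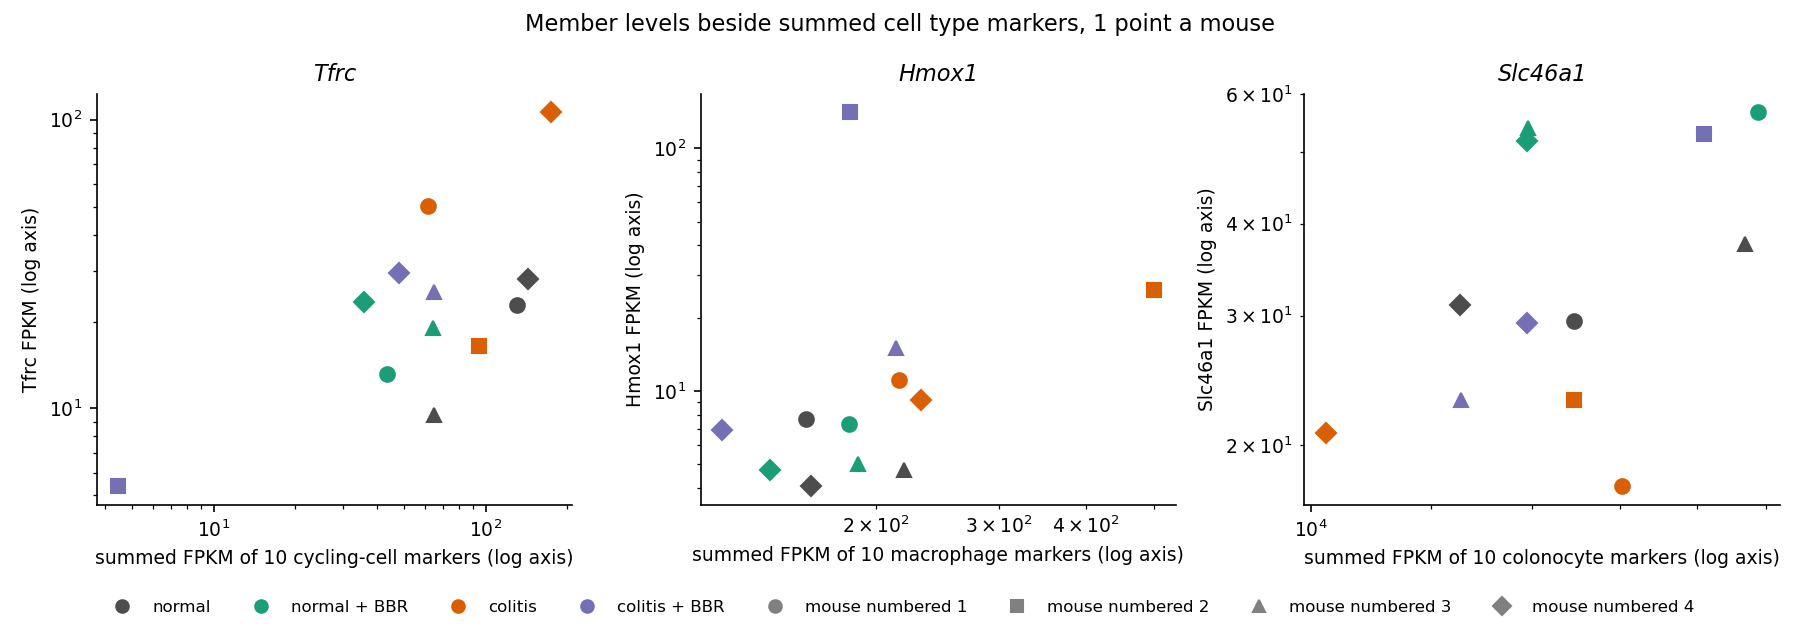
Tfrc beside the summed cycling-cell markers, Hmox1 beside the summed macrophage markers and Slc46a1 beside the summed colonocyte markers, in FPKM on log axes. Each point is 1 mouse, coloured by group, with its number as the marker shape. The highest Hmox1, 141 FPKM, stands over a macrophage sum of 184 FPKM, in a mouse whose single macrophage markers went both ways. The lowest Tfrc, 5.39 FPKM, stands over the lowest cycling-cell sum, 4.47 FPKM.

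By level, Fth1 and Slc40a1 were first and second in the mean of each of the 4 groups and Cybrd1 was last. Between them the order changed with the group. Slc46a1 came just after Heph in normal mice (32.7 against 49.8 FPKM), just before it in BBR-treated normal mice (54.1 against 50.04, a gap within the SD of Heph, 7.96), and after Heph again in both colitis groups. In normal mice Trf, Tfrc and Slc11a2, at 21.6, 20.1 and 15.3 FPKM, did not differ beyond the spread of Trf, which had an SD of 13.8. In colitis mice Tfrc stood just after Heph at 57.6 ± 45.4 FPKM, which overlaps Heph at 71.5 ± 20.5. Hmox1 stood below Slc11a2 in normal mice, above Slc11a2 and Trf in colitis mice and above Slc46a1 in BBR-treated colitis mice, where mouse 2 carried its mean.

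Those most like each of the 10 in pattern were taken, out of genes averaging 1 FPKM or more, by Pearson r over the 12 mice, which share the split between mice numbered 4 and the rest. Of the 10 genes, Hmox1 and Fth1 named each other: Dusp5 (r = 0.963) and Fth1 (0.937) came first for Hmox1, and Nat8f4 (0.953), Hmox1 (0.937) and Gm3776 (0.935) for Fth1. Spearman's rho of Hmox1 and Fth1 was 0.706, and r fell to 0.701 over 10 mice without the 2 mice farthest from the median of Hmox1, both of them numbered 2. For Slc46a1 the closest were Zfp869 (0.942), Naaladl1 (0.940) and Rbm4b (0.939), and for Slc46a3 Ceacam18 (0.950), Esd (0.949) and Adtrp (0.937). The 3 closest were Nlrp1b (0.880), Tbc1d32 and Pdzd3 for Slc40a1, Pex11a (0.924), Nkiras1 and Tnni1 for Slc11a2, and Fry (0.927), Sulf2 and Ift172 for Tfrc. For Cybrd1 they were Vwa1 (0.975), Clasp2 and Parva, for Heph Plac8 (0.959), Pls1 and Naip1, and for Trf Slc9a9 (0.871), Vav1 and Nt5dc2. Over the 8 mice numbered 1 to 3, Naaladl1 alone was again among the 3 closest to Slc46a1, and Ceacam18 and Adtrp among those closest to Slc46a3. Tfrc, Trf, Slc40a1 and Cybrd1 shared 0 of 3 with their lists over those 8 mice.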

How the data were processed

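Rectal RNA of 12 mice was sequenced, and groups and mouse numbers follow the labels. The authors filtered reads with SOAPnuke, aligned them with Bowtie2 2.2.5 and estimated expression with RSEM 1.2.12, on mm9 by the submitters' processing notes, and deposited 1 FPKM value per gene and mouse. The unit was inferred from the values, since the totals differ between mice, and TPM of a trimmed table is possible. The methods name single-end reads of 50 bases and a BGISEQ-500 sequencer, and the labels an Illumina kit. There are no counts, so no count test was run and the depth is known only from steps of low values. Genes with a mean of at least 0.1 FPKM, 15315 of 17734, were fitted as log2(FPKM + 0.1) with limma 3.58.1 (R 4.3.3), taking a mean for each group and letting the prior variance follow mean expression. This scale understates the change of low genes. Benjamini-Hochberg adjustment covered all tested genes. Levels, sites and figures come from Python 3.11.15 with pandas 2.3.3 and matplotlib 3.10.9. Positions are those of GENCODE M21 on GRCm38, not of mm9. The 10 genes, the lists and the tests were chosen with earlier results of these data known, and the study itself picked mineral absorption genes on these samples. All 10 genes are named in every comparison. Up to 3 genes most alike in pattern are named for each, and 1 such gene is not reported here. List genes are named where they passed the adjusted limit with or without the block for the mice numbered 4, and otherwise up to 2 with the smallest P in a list are named. The fit was tested on simulated data. Other settings tried were pseudocounts of 0.01 and 1, no filter or one at a mean of 1 FPKM, median centring, quantile normalization, a fit of the compared groups only, a fit without the trend, blocks for mouse number or for number 4, leaving out every number 4, and leaving out each mouse in turn. The mean effects over 2 comparisons were added after seeing the data. The p-values measure the spread between these mice only.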

Additional observations from a re-analysis of the deposited data

How the results depend on the processing

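The pseudocounts, both filters and the fit of the compared groups alone turned no direction and changed no call among the 10 genes. Numbers are log2 fold changes unless called counts. The table holds 594 refits of a gene's fold change other than those leaving out a mouse, and 559 kept direction and call, 21 turned, 10 gained a call and 4 lost one. The filter at a mean of 1 leaves out Cybrd1, which then has no value. In colitis against normal mice, Slc40a1 was 0.047 after quantile normalization and 0.33 after centring, and Slc11a2 0.019 after centring. With BBR in colitis mice Heph was 0.036 after centring. With BBR in normal mice Tfrc was 0.017 after centring, and over the mice numbered 1 to 3 alone Slc11a2 was −0.039, Tfrc 0.10 and Heph −0.066. In BBR-treated colitis mice against BBR-treated normal mice, Tfrc was 0.17 and Trf 0.062 after quantile normalization, Slc40a1 0.14, Tfrc 0.28 and Trf 0.13 after centring, and Slc40a1 0.16 over the mice numbered 1 to 3. For the interaction, Fth1 was −0.085 after quantile normalization, Slc46a1 0.076 after centring, and over the mice numbered 1 to 3 Slc46a1 was 0.061, Slc40a1 0.39, Heph 0.049 and Trf −0.042. The cause of these turns was not tested. All lie well inside the confidence interval of the value as reported.

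Over the mice numbered 1 to 3 alone, 1 gene, Cybrd1, was called in BBR-treated colitis mice against BBR-treated normal mice. As reported, 1 gene had an average colitis effect past the adjusted limit, beside 14.3% of all genes. That count was 0 after quantile normalization, after centring and without the trend. It was 5 with a block for the mice numbered 4, beside 34.9% of all genes, and 4 over the mice numbered 1 to 3. For the other settings of this paragraph the share of all genes called was not counted.

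Mouse numbers were tried as a replicate block. Deviations from the group means correlated on average by 0.34 in the 13 pairs of mice of different groups with the same number, with a lowest value of 0.078, and by −0.10 between mice with different numbers. Over the mice numbered 1 to 3, same-numbered pairs had a mean of 0.205 and others 0.193, so the numbers mainly set apart those numbered 4. With the replicate block, 1 of the 10 genes was called in colitis against normal mice, beside 4.79% of all genes. This was Tfrc, at 1.89 (limma adjusted p = 0.0288). The average colitis effect of 2 genes passed the adjusted limit, beside 16.1% of all genes. Tfrc in BBR-treated colitis mice against BBR-treated normal mice was 0.47. Hmox1 was 0.51 in colitis against normal mice, with an average colitis effect of 0.98. In the wider lists, 2 iron-withholding genes and 1 heme synthesis gene rose past the limit in colitis against normal mice (2.21% of all genes). In iron sensing 2 fell (2.58%).

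Leaving out 1 mouse gave 0 to 2 called genes in BBR-treated colitis mice against BBR-treated normal mice. For the average colitis effect it gave 0 to 5. The highest count in both came without mouse 4 of the BBR-treated colitis mice. The share of all genes called in these refits was not counted. The following turned when 1 mouse was left out. In colitis against normal mice, Slc40a1 ranged from −0.59 to 0.67. With BBR in colitis mice, the ranges were −0.99 to 0.037 for Cybrd1, −0.19 to 0.67 for Fth1, −0.36 to 0.22 for Heph, −0.44 to 1.73 for Hmox1, −0.45 to 0.89 for Slc40a1 and −0.27 to 0.73 for Slc46a3. With BBR in normal mice, they were −0.19 to 0.35 for Cybrd1, −0.13 to 0.18 for Heph, −0.12 to 0.34 for Hmox1, −0.12 to 0.18 for Slc11a2 and −0.49 to 0.29 for Tfrc. In BBR-treated colitis mice against BBR-treated normal mice, they were −0.19 to 0.23 for Slc11a2, −1.08 to 0.12 for Slc40a1 and −0.61 to 0.60 for Tfrc. For the interaction, they were −0.34 to 0.51 for Fth1, −0.38 to 0.21 for Heph, −0.51 to 1.65 for Hmox1, −1.07 to 0.28 for Slc40a1, −0.38 to 0.22 for Slc46a1, −0.97 to 0.025 for Slc46a3 and −0.30 to 0.63 for Trf. Slc46a1 kept its sign in the 4 pairwise comparisons under every alternative run.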
